A study of Mus musculus with 15 samples.

Results

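The 33 genes described here encode the enzymes, regulators and carriers of cholesterol and fatty acid synthesis that sterol regulatory element-binding proteins (SREBPs) are known to control, together with the SREBPs and their regulators. They were chosen by symbol, as a list of the SREBP pathway, by a rule that uses no measured value but was written with earlier results of these data known. All 33 were found among the 25292 genes of the count table and all 33 carried enough reads to be tested, among 16245 tested genes. They fall into 18 genes of sterol synthesis, 9 genes of fatty acid synthesis, 5 genes of SREBP control (Srebf1, Srebf2, Scap, Insig1 and Insig2) and 1 gene of sterol transport, Stard4.

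Cells make cholesterol from acetyl-CoA through mevalonate, farnesyl diphosphate, squalene and lanosterol, and make fatty acids from the same acetyl-CoA through malonyl-CoA. SREBPs are transcription factors held in the endoplasmic reticulum membrane by their escort protein Scap and by the Insig proteins while sterol is plentiful. When sterol falls, Scap carries them to the Golgi, where proteases release the part that enters the nucleus and raises transcription of the genes of both pathways, Insig1 among them.

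Poly(A) RNA of embryonic mouse pancreas was sequenced from 15 libraries in 5 groups of 3, all of the C57/Bl6J strain by the labels. Pancreata taken directly at 14.5 days post coitum (dpc) were wildtype (wt) or labelled S1pr2 null, a germline allele in which, by the methods of the study, a Neo cassette disrupts the first exon of the sphingosine-1-phosphate receptor gene S1pr2. Wild-type dorsal buds of the same stage were kept for 2 days on filters at an air-liquid interface in serum-free medium with N2 supplement, without an added agent (control), with the S1pr2 antagonist JTE013 at 15 µM (JTE), or with JTE013 at 15 µM and connective tissue growth factor, CTGF, at 50 ng/ml (JTE+CTGF). Each fresh library pooled pancreata of up to 3 pups of the same genotype, and each explant library likewise held pooled explants, so a library is a pool and not 1 animal. Serum, the usual outside source of lipoprotein cholesterol in culture, was absent from all 3 explant groups, and these data hold no measure of sterol. There was no explant of an S1pr2 null embryo and no culture with CTGF alone.

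Depth ranged from 11402804 to 13828737 assigned reads per library, and the biological coefficient of variation was 7.3%. Normalised reads are counts scaled to a common effective library size, the mean over the 15 libraries. S1pr2 itself had 762 to 772 normalised reads in wt and 1263 to 1458 in the libraries labelled S1pr2 null, a rise of 0.83 ± 0.07 (log2 fold change ± SE, edgeR adjusted p = 4.5e-07). Transcripts of the disrupted allele may be counted, which the table cannot show, so these counts neither bear out nor contradict the label. Directions for this group therefore rest on the label.

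JTE 3 stood apart from the other libraries treated with JTE013. It had the lowest normalised reads of its group in 31 of the 33 members, against 39.0% of all tested genes, and the median member lay -0.60 below the mean of JTE 1 and JTE 2 on the log2 scale. Control 3 was the lowest of its group in 30 members, with a median gap of -0.23, and JTE+CTGF 1 in 28 members, with a median gap of -0.27. Summed reads of 12 acinar marker genes were also lowest in those 3 libraries within each group, with 579251 normalised reads in JTE 3 against 923617 and 1054017 in JTE 1 and JTE 2, with 587716 in control 3 against 774832 and 788455, and with 1077261 in JTE+CTGF 1 against 1110847 and 1227086. Endocrine sums were lowest in the same 3 libraries, at 23367 in JTE 3, 76099 in control 3 and 24551 in JTE+CTGF 1. No other marker list was lowest in all 3, and the mesenchyme sum was highest in JTE 3 within its group, at 175741. Whether the shares of these cell types have a part in the members' values was not tested. Counts of called members, and the called values that JTE 3 moved most, are given with and without it. JTE 3 was singled out by the values of these same members. Adjusted p values of members in fits without it are therefore a description and not an independent test. The share of all tested genes called without JTE 3 was not counted, so those counts have no background beside them.

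Promoter sequences from RefSeq (GRCm38.p6, 250 bases before to 50 bases after each annotated start) were found for 26 of the 33 members. The sterol regulatory element, to which SREBPs bind, was searched as TCACNCCAC, and the box bound by their partner NF-Y as CCAAT, on both strands. TCACNCCAC was in the window of 1 of the 26 members, Hmgcs1, against 1.44% of all 27025 genes in the table, and CCAAT in those of 21 of 26 (80.77%), against 41.06% of all genes. The stretches below come from Hmgcs1, which holds both motifs, from Mvk and Nsdhl, which were lower with JTE013, from Fasn, which was lower when CTGF was added, and from Acss2, which was higher with JTE013. Capitals mark a motif on either strand (ATTGG is CCAAT read on the other strand), the 2 kinds of motif did not overlap, and each sequence runs 5′ to 3′ on the strand of the gene.
Hmgcs1: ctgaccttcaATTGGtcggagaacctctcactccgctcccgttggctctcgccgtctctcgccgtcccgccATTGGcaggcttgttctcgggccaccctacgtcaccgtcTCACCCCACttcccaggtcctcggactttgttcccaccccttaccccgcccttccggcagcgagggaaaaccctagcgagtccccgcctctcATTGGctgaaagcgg
Mvk: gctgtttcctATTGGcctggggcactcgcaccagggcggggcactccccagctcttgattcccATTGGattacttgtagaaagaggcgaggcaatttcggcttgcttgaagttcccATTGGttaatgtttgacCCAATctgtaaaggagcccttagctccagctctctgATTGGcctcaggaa
Nsdhl: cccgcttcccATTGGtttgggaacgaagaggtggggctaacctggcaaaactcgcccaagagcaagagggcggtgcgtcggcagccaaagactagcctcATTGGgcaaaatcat
Fasn: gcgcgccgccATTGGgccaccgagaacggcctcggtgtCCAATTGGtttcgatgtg
Acss2: cctacccactATTGGatgcctagag
They lie at chr13:119690104-119690320 (plus strand, Hmgcs1), chr5:114444086-114444268 (plus, Mvk), chrX:72918402-72918515 (plus, Nsdhl), chr11:120824592-120824647 (minus, Fasn) and chr2:155517960-155517984 (plus, Acss2), all before the start that RefSeq gives, which for Acss2 lies inside the span of the gene in the count table. Mvk held 5 CCAAT matches within 183 bases, Fasn 3 of which a pair overlapped, and Acss2 1. A match is a run of letters and not a measured site. Of the 4 members called higher with JTE013, Acss2 and Insig2 held CCAAT in a window, and Scap and Acaca did not. Of the members called lower with JTE013, Acat2, Elovl6 and Fads2 had windows without CCAAT. Fdps, Stard4 and Scd1 had no window, and the rest of the lower members held CCAAT.

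In fresh wt pancreas the members spanned a wide range of levels per exon length. Scd2, a stearoyl-CoA desaturase that puts the first double bond into saturated fatty acids, was at 135.2 RPKM, reads per kilobase of exon scaled to the library size, and Acly, which makes cytosolic acetyl-CoA from citrate, was at 95.4. Idi1, an isomerase of the mevalonate pathway, was the lowest at 0.81 RPKM, and the median member was at 16.1. Scd2 was the highest of the 33 in every group. Fads2 and Fads1, desaturases in the making of polyunsaturated fatty acids, were at 64.9 and 33.8 RPKM in wt. Scd1, the other desaturase of the list, was at 1.98. The mean level was highest in control for 25 members, in JTE for 6 (Acaca, Acss2, Lss, Msmo1, Sc5d and Tm7sf2) and in JTE+CTGF for 2 (Scap and Insig2), and for none in either fresh group.

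**Figure D1:**
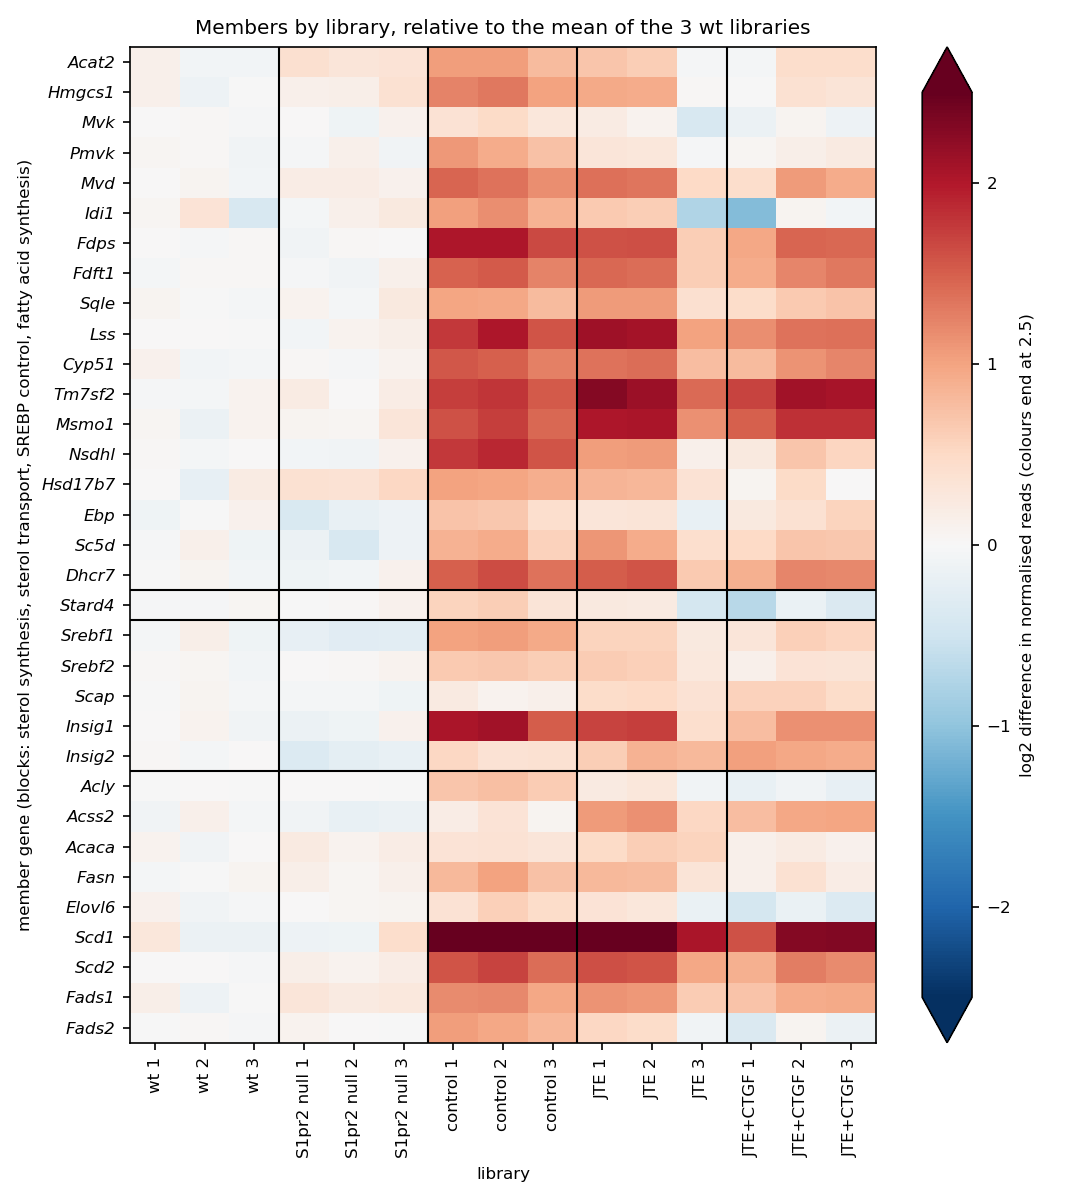
Log2 difference in normalised reads of each of the 33 members (vertical axis, in blocks by role) from the mean of the 3 wt libraries, in each of the 15 libraries (horizontal axis). Red is higher and blue lower than wt, the 3 control libraries are red for nearly all members, and JTE 3 and JTE+CTGF 1 are paler than the other libraries of their groups.

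Control explants were compared with fresh wt pancreas to see how the pathway differed after 2 days of culture without an added agent. Of the 33 members 32 were higher in the control explants, where 28.5% of all tested genes were, and 0 were lower, where 29.3% were. The median log2 fold change was 1.26 for the sterol synthesis genes, 0.85 for the fatty acid synthesis genes and 0.645 for the SREBP control genes, against -0.02 over all tested genes. Acss2, which makes acetyl-CoA from acetate, was the only member not called, at 0.20 ± 0.14 (edgeR adjusted p = 0.237). In all 32 the 3 control libraries lay above the 3 wt libraries, a pattern seen in 30.7% of all tested genes.

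The largest of these differences was that of Scd1 (chr19:44394451-44407709, mm10). Its normalised reads were 145, 107 and 108 in wt and 1762, 1974 and 1272 in control. The groups were far apart, with the lowest control library, control 3, still several times above the highest wt library, and the log2 fold change was 3.79 ± 0.26 (edgeR adjusted p = 2.34e-09). Scd2 rose from 9354, 9276 and 9108 to 27363, 29928 and 24365, by 1.56 ± 0.13. The other fatty acid genes rose less. Fads1 rose by 1.11 ± 0.11, Fads2 by 0.95 ± 0.12, Fasn, the fatty acid synthase, by 0.85 ± 0.10 and Acly by 0.70 ± 0.07, while Elovl6, which lengthens fatty acids, rose by 0.47 ± 0.10 and Acaca, the carboxylase that makes malonyl-CoA, by 0.34 ± 0.07 (edgeR adjusted p at most 0.000874 for all of these).

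All 18 sterol synthesis genes were higher in control explants. Fdps, which makes farnesyl diphosphate, had 415, 401 and 419 normalised reads in wt and 1668, 1671 and 1300 in control (1.91 ± 0.20, edgeR adjusted p = 3.27e-07). Lss, which closes squalene epoxide into lanosterol, had 579, 575 and 567 in wt and 1960, 2338 and 1709 in control (1.80 ± 0.20, edgeR adjusted p = 9.83e-07). Neither gene's groups overlapped, and control 3 was the lowest control library of both. Nsdhl and Tm7sf2, enzymes that trim lanosterol towards cholesterol, rose by 1.74 ± 0.18 and 1.69 ± 0.18, and Cyp51, which removes a methyl group from lanosterol, by 1.44 ± 0.14. Mvk, mevalonate kinase, had the smallest rise of the 18, 0.38 ± 0.11 (edgeR adjusted p = 0.00922). Part of the transcript sequence of Acat2 (39.1% of its 50-base words), Acaca of the fatty acid genes (30.43%), Fdft1 (26.54%), Fdps (26.19%) and Idi1 (25.29%) also occurs in annotated transcripts of other genes. Reads from such stretches went uncounted where they fit several places in the genome. Transcripts that share 1 place were not told apart from copies elsewhere, and the loss of reads was not measured.

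The SREBP control genes rose by very different amounts. Insig1, which retains SREBPs in the endoplasmic reticulum and is itself a target of them, had 740, 779 and 695 normalised reads in wt and 3036, 3170 and 2094 in control (1.91 ± 0.24, edgeR adjusted p = 4.07e-06). Insig2, the related retention protein, had 314, 299 and 312 in wt and 444, 394 and 404 in control (0.42 ± 0.07, edgeR adjusted p = 0.000118). Both pairs of groups were separate, and the rise of Insig1 was by far the larger. Srebf1, which encodes the SREBP mostly tied to fatty acid synthesis, had 1674, 1909 and 1611 in wt and 3447, 3561 and 3326 in control (0.99 ± 0.09, edgeR adjusted p = 5.04e-08). Srebf2, which encodes the SREBP mostly tied to sterol synthesis, had 2949, 2980 and 2767 in wt and 4572, 4602 and 4422 in control (0.64 ± 0.08, edgeR adjusted p = 2.78e-06). The control libraries of both lay close together and above all wt libraries. Scap, the escort protein, had 1247, 1311 and 1216 in wt and 1478, 1340 and 1374 in control (0.15 ± 0.05, edgeR adjusted p = 0.0253), a small step between neighbouring values that lost its call when wt 1, wt 3 or control 1 was left out. Stard4, which carries cholesterol between membranes, rose by 0.50 ± 0.14 (edgeR adjusted p = 0.00526).

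Counts for other lists of lipid genes stand against the 28.5% of all tested genes that were higher and the 29.3% that were lower. Of 14 genes of liver X receptor (LXR) signalling and sterol efflux 10 were higher and 2 lower, led by Ch25h, cholesterol 25-hydroxylase, at 3.25 ± 0.42 and Nr1h3, which encodes LXR-alpha, at 2.02 ± 0.17. Of 23 tested genes of other lipogenesis 15 were higher and 3 lower, with Lpin1 at 2.01 ± 0.11 and Acacb at 1.82 ± 0.30 (edgeR adjusted p at most 5.47e-05 for the genes named). Of 14 genes of sterol uptake and transport 10 were higher and 1 lower. Of 20 genes of fatty acid oxidation 4 were higher and 7 lower, and of 10 genes of the machinery that processes or degrades SREBP pathway proteins 2 were higher and 2 lower. Cell type markers moved as well: of 10 erythroid genes all 10 fell, with a sum of 15200 to 17850 normalised reads in wt and 226 to 536 in control, of 11 tested acinar genes 9 rose, with sums of 81121 to 137245 and 587716 to 788455, and of 14 endocrine genes 10 rose, with sums of 28907 to 32422 and 76099 to 87371. Of 10 macrophage genes 8 rose and 1 fell, with sums of 2772 to 2898 in wt and 4755 to 5115 in control, and of 12 duct and trunk genes 8 rose, with sums of 37265 to 39285 and 56331 to 60418. The 8 adipocyte markers summed to 567 to 625 in wt and 813 to 960 in control, of which Adipoq and Lep were at 0 reads in all 6 libraries. In bulk RNA more cells of a type and more RNA per cell cannot be told apart, the part of these cell types in the members' rise was not tested, and culture, age and the dissected region cannot be told apart in this comparison.

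**Figure D2:**
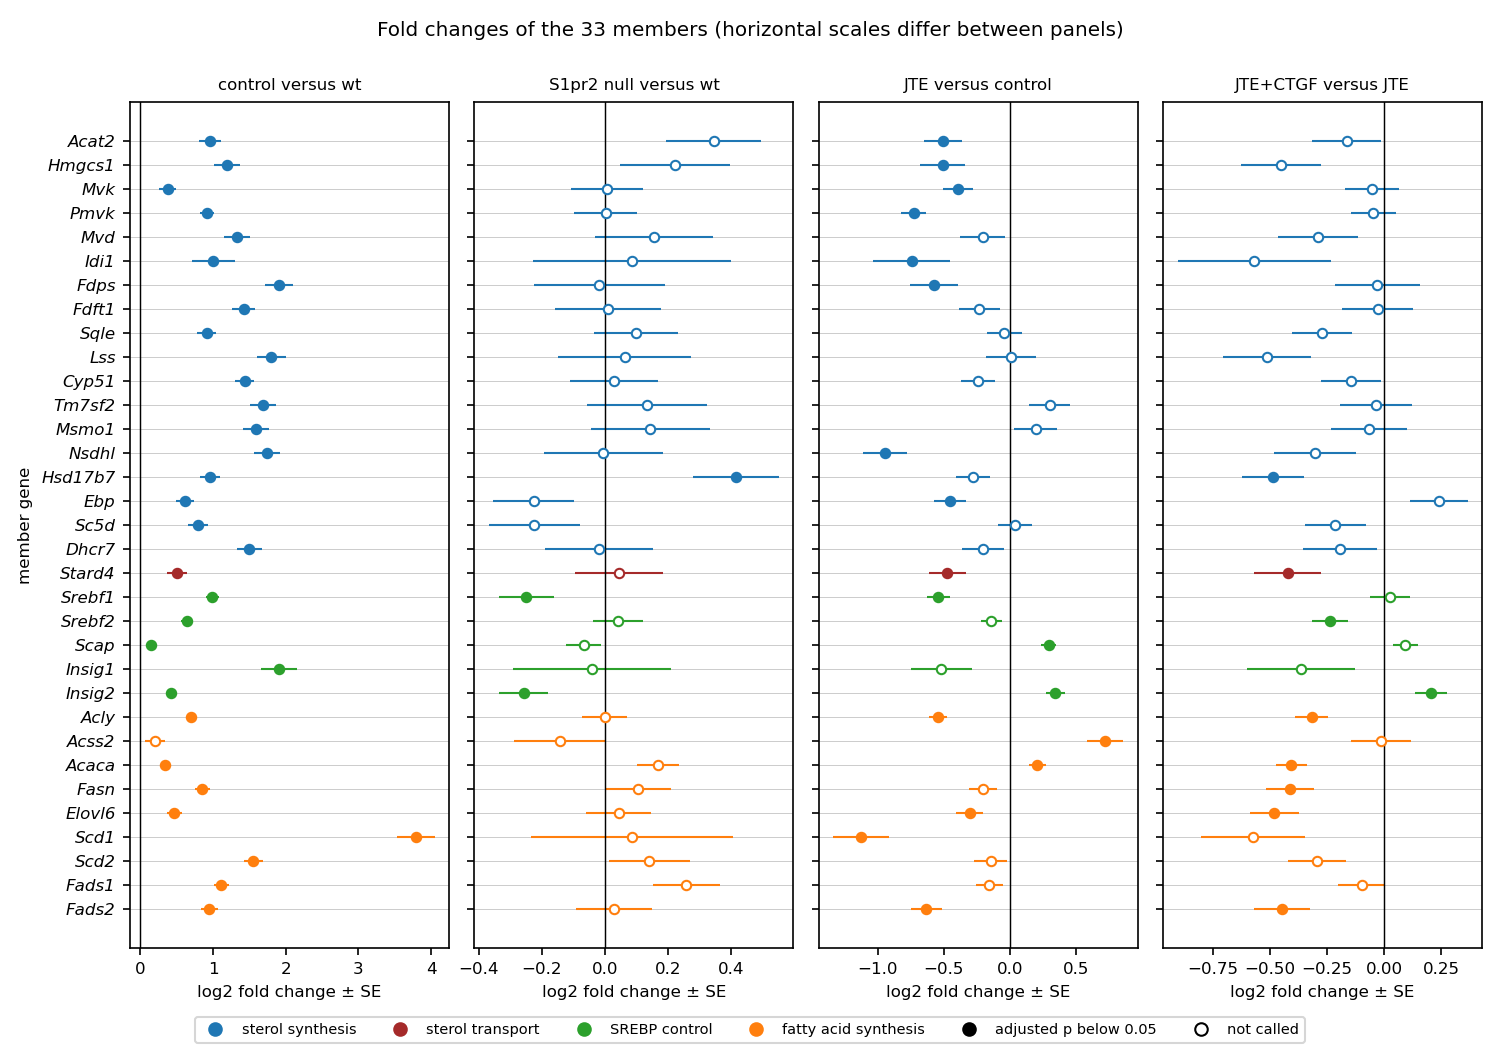
Log2 fold change ± SE of the 33 members (vertical axis, coloured by role) in 4 comparisons, with filled points at an edgeR adjusted p below 0.05 and a separate horizontal scale in each panel. In control against wt 32 points are filled and right of 0, in the libraries labelled S1pr2 null 3 are filled, in JTE 14 are filled left of 0 and 4 right of it, and in JTE+CTGF against JTE 8 are filled left of 0 and 1 right of it.

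The libraries labelled S1pr2 null were compared with wt, both fresh at 14.5 dpc, to see whether the pathway differed with the receptor genotype. Of the 33 members 1 was higher and 2 were lower, where 12.6% and 13.3% of all tested genes were higher and lower. The median log2 fold change was 0.05 for the sterol synthesis genes and 0.09 for the fatty acid synthesis genes, against -0.01 over all tested genes. The groups did not overlap for 6 members that were higher and 4 that were lower, where this held for 22.5% and 23.8% of all tested genes.

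Hsd17b7, a reductase of the sterol pathway, was the member that was higher. It had 216, 187 and 249 normalised reads in wt and 281, 279 and 310 in the libraries labelled S1pr2 null, so that the groups were separate but close (0.42 ± 0.14, edgeR adjusted p = 0.0322). Insig2 was lower, with 314, 299 and 312 against 243, 260 and 269 (-0.26 ± 0.08, edgeR adjusted p = 0.021), and so was Srebf1, with 1674, 1909 and 1611 against 1502, 1427 and 1443 (-0.25 ± 0.09, edgeR adjusted p = 0.0465). None of these 3 calls passed in all of the 21 alternative fits.

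For the rest of the SREBP control genes the groups overlapped. Insig1 had 667, 682 and 798 normalised reads in the libraries labelled S1pr2 null against 740, 779 and 695 in wt (-0.04 ± 0.25, edgeR adjusted p = 0.928). Srebf2 had 2910, 2963 and 3074 there against 2949, 2980 and 2767 (0.04 ± 0.08, edgeR adjusted p = 0.753), and Scap had 1217, 1215 and 1171 against 1247, 1311 and 1216 (-0.07 ± 0.05, edgeR adjusted p = 0.401). Among the enzymes Acly stood at 95.4 RPKM in wt and 95.3 in the libraries labelled S1pr2 null. Acat2, which joins acetyl-CoA molecules at the start of the pathway (0.35 ± 0.15, edgeR adjusted p = 0.104), and Fads1 (0.26 ± 0.11, edgeR adjusted p = 0.0833) had separate groups without passing the test in the main fit. Each passed in 3 of the 21 alternative fits. With only the compared groups fitted, the edgeR adjusted p was 0.000388 for Acat2 and 0.00204 for Fads1.

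The enzymes that moved most in culture or with a treatment had fresh libraries of both genotypes close together. Nsdhl had 287, 269 and 283 normalised reads in wt and 268, 265 and 303 in the libraries labelled S1pr2 null, and Fdps had 389, 418 and 414 and Lss 549, 613 and 634 in the latter. Scd1 had 109, 111 and 161 there and Scd2 10250, 9841 and 10501, the latter above all wt libraries. Acss2 had 134, 155 and 138 in wt and 134, 125 and 128 in the libraries labelled S1pr2 null, with an overlap. Elovl6 had 736, 648 and 675 against 694, 711 and 719, Fads2 1218, 1255 and 1209 against 1306, 1241 and 1214, and Idi1, with few reads, 36.0, 44.1 and 26.3 against 33.4, 37.9 and 41.2. None of these enzymes was called in this comparison in the main fit, and Scd2 passed in 1 of the 21 alternative fits.

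Counts for other lists of lipid genes stand against the 13.3% of all tested genes that were lower and the 12.6% that were higher. Of 20 genes of fatty acid oxidation 11 were lower and 0 higher. Of 23 tested genes of other lipogenesis 7 were lower and 3 higher, with Mlxipl, which encodes the glucose-responsive transcription factor ChREBP, at -1.42 ± 0.17. Of 14 genes of sterol uptake and transport 3 were lower and 1 higher, with Tmem97 at -0.95 ± 0.15 (edgeR adjusted p at most 0.00027 for the genes named), and of 10 genes of SREBP processing 1 was lower. Of 11 tested acinar genes 8 were lower and of 14 endocrine genes all 14, with acinar sums of 28706 to 31139 normalised reads against 81121 to 137245 in wt and endocrine sums of 13996 to 15925 against 28907 to 32422. The members' sums were 10348 to 11514 against 9847 to 10403 in wt for sterol synthesis. For fatty acid synthesis they were 24296 to 25188 against 23203 to 23405, of which Scd2 alone had means of 10200 and 9246. The part of these cell types in the members' values was not tested.

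Explants with JTE013 were compared with control explants to see how the pathway differed when the receptor was blocked in culture. Of the 33 members 14 were lower and 4 were higher, where 26.2% of all tested genes were lower and 25.9% higher. The median log2 fold change was -0.26 for the sterol synthesis genes and -0.20 for the fatty acid synthesis genes, against 0 over all tested genes. Scd1, Nsdhl and Pmvk had low values with JTE013, while Acss2, Insig2 and Scap had high ones. Groups were separate for 15 members that were lower and 4 that were higher, where this held for 28.3% and 28.4% of all tested genes. The control libraries enter this comparison as well as that with wt, so that the fall here and the rise in culture rest in part on the same 3 libraries.

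The lower members were unevenly spread along the sterol pathway, in a split made after the values were seen. Of the 7 genes from Acat2 to Fdps, the mevalonate steps, 6 were lower, and of the 11 genes of the squalene and sterol steps 2 were, a difference that was not tested. Pmvk, phosphomevalonate kinase, fell by 0.73 ± 0.10 on the log2 scale (edgeR adjusted p = 8.01e-06, the other adjusted p values follow each gene), Fdps by 0.57 ± 0.18 (0.0142), Hmgcs1, which makes the precursor of mevalonate, by 0.51 ± 0.17 (0.0199), Acat2 by 0.51 ± 0.15 (0.00773) and Mvk by 0.39 ± 0.11 (0.00844). Idi1 had 71.1, 78.4 and 63.5 normalised reads in control and 55.0, 53.1 and 20.5 in JTE, with JTE 3 far below the other libraries (-0.74 ± 0.29, edgeR adjusted p = 0.0417). Of the later steps Nsdhl (chrX:72918557-72958514, mm10) had 948, 1028 and 831 in control and 579, 586 and 304 in JTE (-0.94 ± 0.17, edgeR adjusted p = 0.000159), groups that stood well apart. Ebp, an isomerase late in the pathway, fell by 0.45 ± 0.12 (edgeR adjusted p = 0.00525). Hsd17b7, at 436, 425 and 407 in control and 389, 382 and 276 in JTE, had separate groups and was not called (-0.28 ± 0.13, edgeR adjusted p = 0.0765). Lss, at 2494, 2416 and 1145 in JTE against 1960, 2338 and 1709 in control, was split by JTE 3, with both other treated libraries above all controls and JTE 3 below them all (0.01 ± 0.19, edgeR adjusted p = 0.975), and Fdps had 1241, 1260 and 630 in JTE.

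Among the fatty acid genes Scd1 had 1762, 1974 and 1272 normalised reads in control and 904, 907 and 492 in JTE (-1.13 ± 0.21, edgeR adjusted p = 0.000258). Every treated library was below every control library, and every one was above every fresh library. Scd2, its close relative at a far higher level, had 28133, 27599 and 18112 in JTE against 27363, 29928 and 24365, groups that overlapped (-0.15 ± 0.13, edgeR adjusted p = 0.357). Acss2 (chr2:155517948-155585724, mm10) went the other way, with 162, 180 and 149 in control and 298, 312 and 203 in JTE (0.72 ± 0.14, edgeR adjusted p = 0.000277). Even JTE 3, the lowest treated library, was above all controls. Acly, the other source of cytosolic acetyl-CoA, fell by 0.54 ± 0.07 (edgeR adjusted p = 6.99e-06). Fads2 had 2524, 2401 and 2181 in control and 1754, 1682 and 1153 in JTE (-0.63 ± 0.12, edgeR adjusted p = 0.000266), Elovl6 had 878, 1030 and 941 in control and 866, 837 and 613 in JTE (-0.30 ± 0.10, edgeR adjusted p = 0.0201), and Acaca was higher by 0.21 ± 0.06 (edgeR adjusted p = 0.0117). Fasn, at -0.20 ± 0.10 (edgeR adjusted p = 0.107), was not called.

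**Figure D3:**
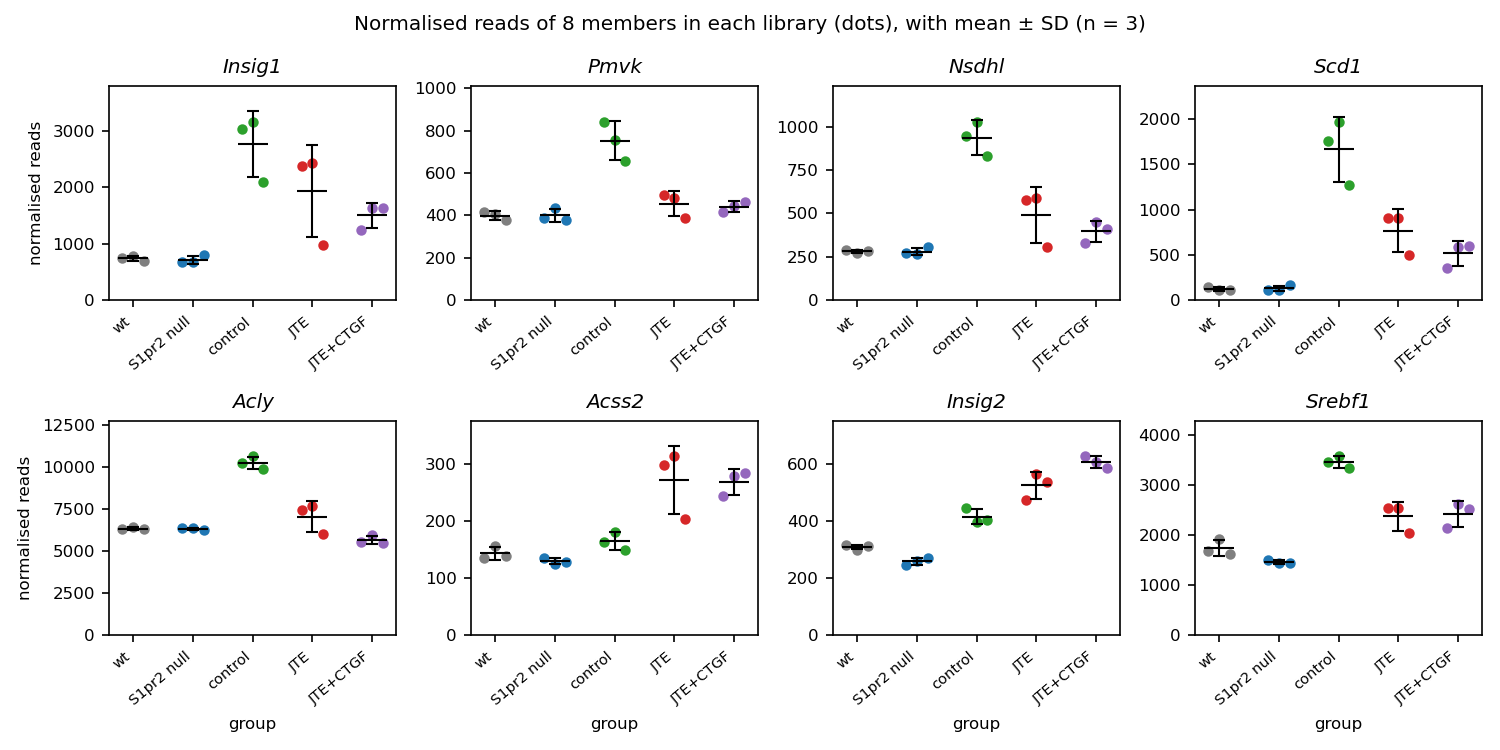
Normalised reads (vertical axes, from 0) of 8 members in the 5 groups, with a dot for each library and the mean ± SD of 3 libraries. Scd1, Nsdhl, Pmvk, Acly and Srebf1 are highest in control, Acss2 is highest in the JTE and JTE+CTGF libraries, and Insig2 is highest in JTE+CTGF.

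The SREBP control genes went in both directions. Srebf1 had 3447, 3561 and 3326 normalised reads in control and 2538, 2538 and 2035 in JTE (-0.54 ± 0.09, edgeR adjusted p = 5.74e-05), with no overlap. Scap had 1478, 1340 and 1374 in control and 1737, 1780 and 1622 in JTE (0.29 ± 0.05, edgeR adjusted p = 0.000231). Insig2 had 444, 394 and 404 in control and 472, 564 and 538 in JTE (0.34 ± 0.07, edgeR adjusted p = 0.000723). Both rose with the groups apart, and JTE 3 was not the lowest library for Insig2. Insig1 had 3036, 3170 and 2094 in control and 2387, 2440 and 983 in JTE (-0.52 ± 0.23, edgeR adjusted p = 0.0691), and Srebf2 had 4572, 4602 and 4422 in control and 4482, 4398 and 3467 in JTE (-0.14 ± 0.08, edgeR adjusted p = 0.15). In both, JTE 1 and JTE 2 lay in or near the range of the controls and JTE 3 below it. Stard4 fell by 0.47 ± 0.14 (edgeR adjusted p = 0.00917).

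Without JTE 3, a library picked out by the members' own values, 11 members were lower and 7 higher. The share of all tested genes called in this fit was not counted. The median of the sterol synthesis genes then moved to -0.10 and that of the fatty acid synthesis genes to -0.06. Hmgcs1, Idi1 and Elovl6 were then not called, while 3 enzymes of the squalene and sterol steps were called higher, Tm7sf2 at 0.52 (edgeR adjusted p = 0.000358), Msmo1 at 0.44 (0.00132) and Lss at 0.29 (0.0141). Of the mevalonate steps 4 of 7 stayed lower, with smaller changes, Pmvk at -0.62 (edgeR adjusted p = 2.49e-05), Acat2 at -0.31 (0.0287), Fdps at -0.31 (0.033) and Mvk at -0.22 (0.0368). Stard4 moved to -0.28 (edgeR adjusted p = 0.033) and Insig1, not called either way, to -0.20 (0.238). Nsdhl remained at -0.68 (edgeR adjusted p = 2.92e-05), Scd1 at -0.88 (0.000515), Acly at -0.44 (2.08e-06) and Acss2 at 0.90 (2.17e-06). In all of the 21 alternative fits 10 lower calls held (Acat2, Mvk, Pmvk, Nsdhl, Ebp, Srebf1, Stard4, Acly, Scd1 and Fads2), as did 3 higher ones (Scap, Insig2 and Acss2).

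**Figure D4:**
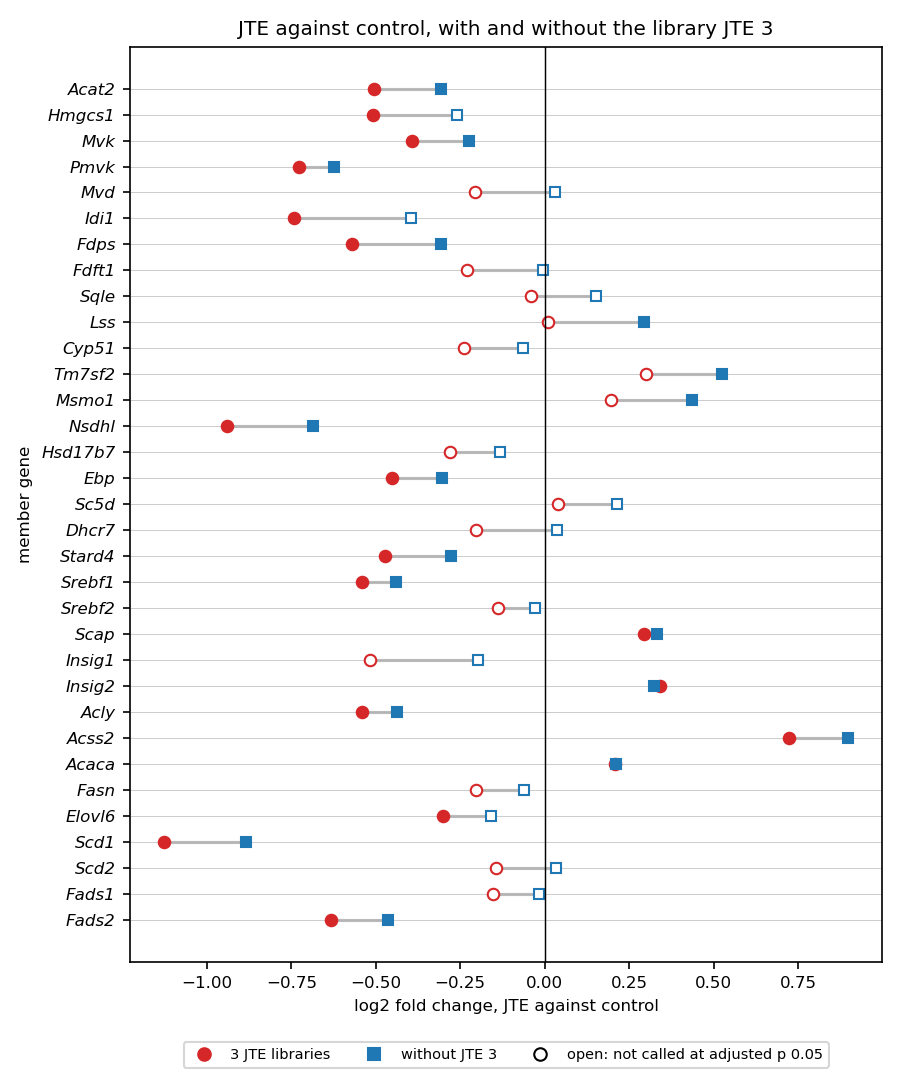
Log2 fold change of JTE against control (horizontal axis) for the 33 members (vertical axis) with all 3 JTE libraries (circles) and without JTE 3 (squares), filled at an edgeR adjusted p below 0.05. Most squares lie right of their circles, Tm7sf2, Msmo1 and Lss become filled right of 0, and Hmgcs1, Idi1 and Elovl6 become open.

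Counts for lists outside the synthesis pathways stand against the 25.9% of all tested genes that were higher with JTE013 and the 26.2% that were lower. Of 10 genes of SREBP processing and degradation 7 were higher and 1 lower, with Paqr3, which anchors Scap and SREBP in the Golgi, at 2.28 ± 0.17, and Mbtps2, which encodes the site-2 protease that releases SREBPs, and Erlin1, which takes part in degrading sterol-regulated membrane proteins, each at 0.90. Of 14 genes of sterol uptake and transport 6 were higher and 2 lower, with Vldlr, a lipoprotein receptor, at 2.61 ± 0.10, Npc1, which moves cholesterol out of lysosomes, at 1.33 ± 0.11, and Lrp8 at -0.82 ± 0.11. Of 14 genes of LXR and sterol efflux 5 were higher and 5 lower, with Soat2, which esterifies cholesterol, at 2.83 ± 0.26 and Ch25h at -3.01 ± 0.42. Of 23 tested genes of other lipogenesis 9 were higher and 3 lower, with Dgat2, which completes triglycerides, at 1.76 ± 0.12 and Mlxipl at -1.16 ± 0.15. Of 20 genes of fatty acid oxidation 6 were higher and 4 lower, with Ppara at 1.21 ± 0.21, and of 12 genes of the non-sterol isoprenoid branch 5 were higher and 1 lower. The largest edgeR adjusted p of the genes named here was that of Ppara, 0.000111.

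Markers of several cell types moved in the same comparison. All 10 macrophage markers were lower, with sums of 4755 to 5115 normalised reads in control and 1426 to 1645 in JTE. Of 14 endocrine genes 13 were lower, with sums of 76099 to 87371 and 23367 to 28383, and of 12 duct and trunk genes 8 were lower, with sums of 56331 to 60418 and 32624 to 37319. Of 8 endothelial genes 7 were lower, with sums of 6660 to 8152 and 4831 to 5414. The acinar sums overlapped, at 587716 to 788455 and 579251 to 1054017. Of the adipocyte list Adipoq, Cidec, Lep and Plin1 were at 0 or 1 normalised reads in the JTE libraries. The part of these shifts in the members' values was not tested.

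**Figure D5:**
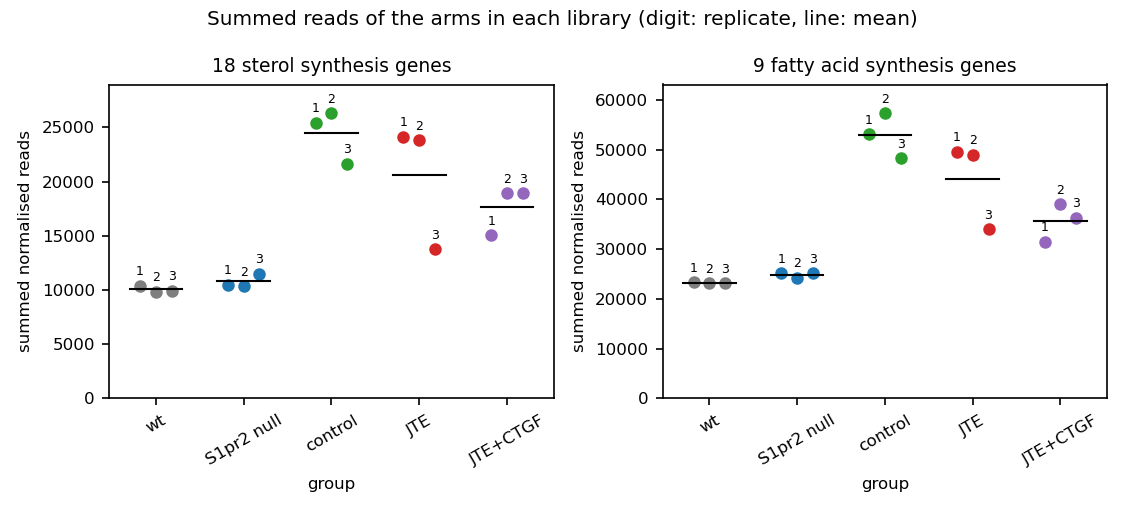
Summed normalised reads (vertical axes, from 0) of the 18 sterol synthesis genes and of the 9 fatty acid synthesis genes in each library, with the replicate number beside each point and a line at the group mean. Fresh libraries lie between 9847 and 11514 for sterol synthesis, control libraries between 21652 and 26317, and JTE 3, at 13765, lies below JTE 1 and JTE 2.

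JTE+CTGF explants were compared with JTE explants to see whether the pathway differed when CTGF, a matricellular protein, was added on top of the antagonist. Of the 33 members 8 were lower and 1 was higher, where 16.8% and 13.6% of all tested genes were lower and higher. In the main fit fatty acid synthesis made up most of it, with 5 of the 9 genes lower and a median log2 fold change of -0.405. Of the 18 sterol synthesis genes 1 was lower, with a median of -0.18, against -0.0022 over all tested genes. This split moved with JTE 3. Without it 12 of the 18 sterol synthesis genes and 7 of the 9 fatty acid synthesis genes were lower. Their medians were then -0.338 and -0.436. The difference between these arms was not tested. Groups were separate for 3 lower members and 1 higher one, where this held for 20.6% and 19.6% of all tested genes.

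Elovl6 had 866, 837 and 613 normalised reads in JTE and 504, 610 and 544 in JTE+CTGF (-0.48 ± 0.11, edgeR adjusted p = 0.00284). Acaca stood at 4.12 RPKM in JTE and 3.11 in JTE+CTGF (-0.41 ± 0.07, edgeR adjusted p = 0.000218). Acly stood at 106 and 85.1 RPKM (-0.32 ± 0.07, edgeR adjusted p = 0.00272). For these 3 genes every JTE+CTGF library was below every JTE library, if only by a little for Elovl6 and Acly. Fads2 had 1754, 1682 and 1153 in JTE and 960, 1287 and 1112 in JTE+CTGF, groups that overlapped through JTE 3 (-0.45 ± 0.12, edgeR adjusted p = 0.0105). Fasn was lower by the test at -0.41 ± 0.10 (edgeR adjusted p = 0.00621), also with an overlap. Acly, Acaca, Fasn and Elovl6 were called lower in all of the 21 alternative fits. Scd1 had 358, 589 and 596 in JTE+CTGF (-0.57 ± 0.23, edgeR adjusted p = 0.0646), Scd2 had 17044, 22318 and 20870 (-0.29 ± 0.13, edgeR adjusted p = 0.0926) and Acss2 had 242, 278 and 283 (-0.01 ± 0.13, edgeR adjusted p = 0.951), each overlapping with JTE.

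Of the sterol side Hsd17b7 was the enzyme called, with 389, 382 and 276 normalised reads in JTE and 228, 300 and 218 in JTE+CTGF (-0.49 ± 0.14, edgeR adjusted p = 0.0124), again with an overlap at JTE 3. Stard4 was lower at -0.42 ± 0.15 (edgeR adjusted p = 0.0372). Idi1 had 16.0, 36.6 and 33.2 in JTE+CTGF, Nsdhl 329, 451 and 406, Fdps 810, 1130 and 1119, and Lss 1289, 1461 and 1485. All of these groups overlapped with JTE through JTE 3, and none was called.

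Insig2 was the member that was higher, with 625, 606 and 584 normalised reads in JTE+CTGF against 472, 564 and 538 in JTE (0.21 ± 0.07, edgeR adjusted p = 0.0349). Srebf2 was lower, with 3168, 3696 and 3613 against 4482, 4398 and 3467 (-0.24 ± 0.08, edgeR adjusted p = 0.0324). Only the groups of Insig2 were separate. Srebf1 had 2128, 2605 and 2510 (0.03 ± 0.09, edgeR adjusted p = 0.85), Scap 1884, 1864 and 1733 (0.09 ± 0.05, edgeR adjusted p = 0.208), and Insig1 1251, 1627 and 1631 (-0.36 ± 0.24, edgeR adjusted p = 0.266), none of which was called.

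Without JTE 3 the count of lower members in this comparison rose from 8 to 22, of which 12 were sterol synthesis genes and 7 fatty acid synthesis genes. Lss was then at -0.76 (edgeR adjusted p = 1.76e-05), Hmgcs1 at -0.66 (0.000224) and Insig1 at -0.65 (0.00177). The share of all tested genes called in that fit was not counted, and JTE 3 was picked out by the members' own values. That fit also raised the higher members in S1pr2 null against wt, which holds no JTE library, from 1 to 3. Leaving out JTE 1, JTE 2, JTE+CTGF 1 or JTE+CTGF 3 in place of JTE 3 gave 4 or 5 lower members in JTE+CTGF against JTE. For those fits the share of all tested genes was not counted either. Of the marker lists, 4 of 6 tested adipocyte genes were higher, with Adipoq at 22 to 36 normalised reads and Lep at 19 to 35 in JTE+CTGF against 0 or 1 in JTE, and list sums of 732 to 901 against 578 to 682. Of 10 erythroid genes 5 were higher and 0 lower, with sums of 1466 to 2393 against 268 to 704. The part of these markers in the members' values was not tested. Of 20 genes of fatty acid oxidation 8 were higher and 2 lower, where 13.6% and 16.8% of all tested genes were, with Acaa1a at 0.55 ± 0.10 and Acadl, a dehydrogenase of fatty acid oxidation, at 0.26 ± 0.05 (edgeR adjusted p at most 0.000862).

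JTE+CTGF explants were also compared with control explants, which shows both agents together. Of the 33 members 25 were lower and 3 higher, where 33% and 28.1% of all tested genes were lower and higher. The median log2 fold change was -0.47 for the sterol synthesis genes and -0.615 for the fatty acid synthesis genes, against -0.03 over all tested genes. Scd1 was at -1.70 ± 0.22, Idi1 at -1.31 ± 0.32, Nsdhl at -1.24 ± 0.17, Fads2 at -1.08 ± 0.12, Hmgcs1 at -0.96 ± 0.17 and Acly at -0.86 ± 0.07 (edgeR adjusted p at most 0.00178). The 3 higher members were the same as those that held in JTE against control, Acss2 at 0.71 ± 0.14, Insig2 at 0.55 ± 0.07 and Scap at 0.39 ± 0.05. Both comparisons use the same control libraries. Cell type markers differed between the same groups. All 10 macrophage genes were lower, with sums of 1164 to 1730 normalised reads against 4755 to 5115 in control, as were 13 of 14 endocrine genes, with sums of 24551 to 33885 against 76099 to 87371, 10 of 12 duct and trunk genes and 7 of 8 endothelial genes, while 4 of 6 tested adipocyte genes were higher and 2 lower. Of 10 erythroid genes 6 were higher, with sums of 1466 to 2393 against 226 to 536, and of 11 tested acinar genes 4 were higher and 1 lower, with sums of 1077261 to 1227086 against 587716 to 788455. Their part in the members' values was not tested.

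For all 25 lower members each JTE+CTGF library lay below each control library, a pattern found in 34.4% of all tested genes, and for the 3 higher ones above it, found in 30.4%. Fdft1, Tm7sf2, Msmo1, Ebp and Sc5d were not called and overlapped with control. Insig1 fell by 0.88 ± 0.23 on the log2 scale (edgeR adjusted p = 0.00366), Stard4 by 0.89 ± 0.14 (4.54e-05), Srebf1 by 0.51 ± 0.09 (6.98e-05) and Srebf2 by 0.38 ± 0.08 (0.000592). Of the calls 17 lower and all 3 higher ones held in the 21 alternative fits. No library left out in turn brought the count of lower members under 18. JTE 3 enters this comparison through the shared estimate of spread, the filter on low counts and the normalisation factors. Without it 25 members were lower and 4 higher, with Fdft1 called lower (-0.22, edgeR adjusted p = 0.0378), Tm7sf2 called higher (0.30, 0.00912) and Acaca not called (-0.16, 0.0518).

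The response to JTE013 and the difference in the libraries labelled S1pr2 null were set against each other with a test of their difference, over 4 groups that share no library. Of the 33 members 10 were lower and 3 higher in the JTE response than in the genotype difference, where 21.5% of all tested genes were lower and 21.5% higher. Scd1 was at -1.13 in JTE against control and 0.09 in the libraries labelled S1pr2 null against wt, a difference of -1.21 ± 0.38 (edgeR adjusted p = 0.0171). Nsdhl was at -0.94 and -0.01 (difference -0.94 ± 0.25, edgeR adjusted p = 0.00649), Pmvk at -0.73 and 0.00 (-0.73 ± 0.14, edgeR adjusted p = 0.000461), and Hsd17b7 at -0.28 and 0.42 (-0.70 ± 0.19, edgeR adjusted p = 0.00631). Acss2 was at 0.72 and -0.14 (0.86 ± 0.20, edgeR adjusted p = 0.00218), and Insig2 at 0.34 and -0.26 (0.60 ± 0.11, edgeR adjusted p = 0.000243). Srebf1, lower in both comparisons at -0.54 and -0.25, was not called (-0.29 ± 0.12, edgeR adjusted p = 0.0655), but passed in 8 of the 21 alternative fits, with adjusted p values from 0.0283 to 0.169 over them. Of the calls 6 lower (Acat2, Pmvk, Nsdhl, Hsd17b7, Acly and Fads2) and all 3 higher ones (Scap, Insig2 and Acss2) held in the 21 alternative fits. Without JTE 3, 5 members were higher in place of 3, with Sc5d (0.44, edgeR adjusted p = 0.019) and Tm7sf2 (0.39, 0.0465) added. Fresh organ and cultured bud, and age, differ between these comparisons as well as the way in which S1pr2 was targeted, and these cannot be told apart.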

How the data were processed

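Strand-specific poly(A) libraries of 15 pools of mouse embryonic pancreas were sequenced single-end. The authors aligned the reads to mm10 with GSNAP and counted uniquely aligned reads per Ensembl gene with featureCounts 1.4.6 (version per the submitters' processing notes). The deposited values are raw counts, with no normalisation. Whether counting used the strand was not given in the sources used here, so overlapping genes can share reads, and reads that fit several places were not counted. A column gave each of the 15 samples, and groups and replicate numbers came from the sample titles. Of 25292 identifiers 24750 (97.86%) were given symbols from GENCODE M21 annotation of the same build, and total counts were 11402804 to 13828737 reads per library. At this depth members with few reads, such as Idi1, carry the largest counting error.

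Counts were tested with the edgeR 4.0.16 quasi-likelihood F-test in R 4.3.3, with TMM factors, filterByExpr, 1 coefficient per group, all 15 libraries in the fit and no covariate, and p-values were adjusted by Benjamini-Hochberg over the 16245 genes tested. A gene was called at an adjusted p below 0.05. P-values rest on the spread between pooled libraries within groups, in 1 estimate per gene shared by all 5 groups. Those of the fresh comparison therefore also carry the spread of the explant libraries, JTE 3 among them. RPKM values use the exon length in the count table and the effective library size. The members and lists were chosen with earlier results of these data known, so no p-value over the list is given. Every library's value was printed for the SREBP control genes and, in each arm and each of 4 comparisons, for the 2 called members with the largest fold change, and up to 3 called genes were named from each other list, with 1 item not reported here. Alternatives were DESeq2 1.42.0, RLE and upper-quartile factors, no filter on low counts, the compared groups alone, the replicate number as a block, each library left out in turn, and the criterion of the study (adjusted p at most 0.1, mean count above 100 and fold change below 0.6 or above 1.6). On simulated counts for the comparison of 2 groups the fit called 93 of 100 genes changed by 1.5-fold and 100 of 100 changed by 2-fold, with 11 false calls among 15867 genes. The simulation gave every gene the same coefficient of variation, 7.3%, and held no outlying library such as JTE 3. These rates therefore do not carry over to members with a wider spread.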

Additional observations from a re-analysis of the deposited data

Results flagged for a closer look

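The responses in the 2 settings, JTE against control in culture and the libraries labelled S1pr2 null against wt in the fresh organ, differed by the test of their difference (edgeR, adjusted p below 0.05) for 13 members. The JTE response was the lower by a log2 difference of -1.21 for Scd1, -0.936 for Nsdhl, -0.851 for Acat2, -0.731 for Hmgcs1, -0.73 for Pmvk, -0.697 for Hsd17b7, -0.663 for Fads2, -0.541 for Acly, -0.517 for Stard4 and -0.413 for Fads1. It was the higher by 0.865 for Acss2, 0.599 for Insig2 and 0.361 for Scap. Among all tested genes 21.5% were higher and 21.5% lower by the same test. With JTE 3 left out, Stard4 (adjusted p = 0.072) and Fads1 (adjusted p = 0.0551) no longer passed in edgeR, Hmgcs1 moved to -0.48, and Sc5d (0.44, adjusted p = 0.019) and Tm7sf2 (0.39, adjusted p = 0.0465) passed as higher. Culture, age and the means by which S1pr2 was targeted differ together between these settings and cannot be told apart.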

How the results depend on the processing

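In control against wt the medians and the counts of members stayed within the spread or within 1.5 times the main count in every alternative run, with 31 to 32 higher and 0 lower when a library was left out and medians of 1.21 to 1.34 (sterol synthesis) and 0.774 to 0.909 (fatty acid synthesis). By the criterion of the study, which adds a fold and a mean count, members were 0 higher and 0 lower in S1pr2 null against wt, 1 and 2 in JTE against control, 0 and 0 in JTE+CTGF against JTE, and 1 and 10 in JTE+CTGF against control. S1pr2 null against wt had 1 lower member with RLE factors, 3 higher with no filter on low counts and 5 higher when only the compared groups were fitted, and JTE+CTGF against JTE then had 0 higher and 4 lower. With a library left out, S1pr2 null against wt ran from 0 to 3 higher and 0 to 2 lower (medians 0.0144 to 0.0796 and 0.0319 to 0.133), JTE against control from 3 to 7 higher and 11 to 17 lower (medians -0.366 to -0.0996 and -0.286 to -0.0603), JTE+CTGF against JTE from 0 to 1 higher and 4 to 22 lower (medians -0.338 to -0.0609 and -0.436 to -0.328), JTE+CTGF against control from 3 to 4 higher and 18 to 25 lower (medians -0.535 to -0.365 and -0.69 to -0.534), and the difference between the responses from 3 to 5 higher and 6 to 14 lower. The highest counts in JTE+CTGF against JTE and the most higher members in JTE against control came without JTE 3. In the other cases the cause was not tested. Apart from the replicate block, calls over all tested genes were not counted under these alternatives. The counts of members in this paragraph therefore have no background beside them.

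With the replicate number as a block, JTE+CTGF against JTE had 0 higher members, and no other count of members moved by over 1.5 times. Over all tested genes, replicates with the same number showed correlations of -0.0785 to 0.21 in their deviations. No comparison had all 3 above 0.1, and at most 3 of 6 libraries correlated best with their own number. The highest value, 0.21, was that of control 3 and JTE 3. Among the 33 members these were the lowest of their groups in 30 and 31, while JTE+CTGF 3 was lowest in 5. The main fit used no pairing, and a link between control 3 and JTE 3 for the members was not tested beyond the block. Over all tested genes the block moved the calls in JTE against control from 8474 to 8338. Depth limits Idi1, at 16.0 to 78.4 normalised reads, more than the other members, and each group has 3 pools.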

Other observations

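Some members are set side by side here as mean levels per exon length across the explant groups and fresh wt pancreas. Acly, at 154 RPKM in control, 106 in JTE and 85.1 in JTE+CTGF, ended below its 95.4 RPKM in fresh wt pancreas, and so did Elovl6, at 12.7, 10.3 and 7.40 RPKM against 9.20, Fads2, at 125, 80.9 and 59.2 against 64.9, and Stard4, at 20.7, 15.0 and 11.1 against 14.6. Scd1, at 27.5, 12.6 and 8.47 RPKM, stayed above its 1.98 in wt. Scap, at 21.4, 26.2 and 28.0 RPKM against 19.3, stood higher in both treated groups than in control and wt. These are means of 3 libraries, and JTE+CTGF against wt was not tested.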
